A study of Mus musculus with 24 samples.

Results

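Mitosis and chromosome segregation genes were followed in bone marrow-derived dendritic cells (BMDCs) with and without tristetraprolin (TTP), before and during stimulation with lipopolysaccharide (LPS). The genes were the rows of the 4 deposited tables whose gene name was one of 45 listed members. The list was set by gene name, with earlier results of these data known. All 45 were present in every table, among 23394 gene IDs. They were arranged in 9 groups by role: cyclins and CDK1, the anaphase-promoting complex and securin, the spindle checkpoint, mitotic kinases, the chromosomal passenger complex, the kinetochore, kinesin motors, spindle and chromosome proteins, and cytokinesis.

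The series holds 24 poly(A) RNA-Seq libraries in 8 groups of 3: WT and TTP-/- cells left untreated (0 h) or given 10 ng/ml LPS for 3, 6 or 9 h. Mice were on a C57BL/6 background and 9 to 12 weeks old, and every culture was grown from bone marrow with GM-CSF. TTP is an RNA-binding protein encoded by *Zfp36* that promotes decay of mRNAs with AU-rich elements, and the TTP-/- mice lack it. The question addressed here is how RNA levels of mitotic genes differed with genotype and with LPS.

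Cells entering mitosis raise cyclins A and B, which activate CDK1, while Aurora and Polo-like kinases build the spindle and the kinetochores attach chromosomes to it. The spindle checkpoint holds back the anaphase-promoting complex until all chromosomes are attached, after which the complex degrades securin and the cyclins, and the cell divides by cytokinesis. Most of these genes are transcribed in the late part of the cell cycle and are low in cells that do not divide; in GM-CSF cultures of bone marrow, dividing precursors give rise to dendritic cells that no longer divide.

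Many promoters of such genes carry a short element known as the cell cycle genes homology region (CHR, TTTGAA), often with CCAAT boxes upstream, to which the MuvB and NF-Y complexes are known to bind. RefSeq promoter sequences (GRCm38.p6, 250 bases before to 50 bases after the start) were found for 40 of the 45 members. The 8 sequences below, each from 110 bases before to 20 bases after the RefSeq start, are shown because the results turn on these genes: *Ube2c*, *Ccnb2*, *Ccnb1*, *Cdc20* and *Birc5* were among the 6 largest genotype differences of the FPKM fit before LPS, *Cdk1* is the kinase at the centre of the program, and *Bub3* and *Pttg1* did not follow the others. Capitals mark TTTGAA and CCAAT, or their reverse complements TTCAAA and ATTGG.
Ube2c: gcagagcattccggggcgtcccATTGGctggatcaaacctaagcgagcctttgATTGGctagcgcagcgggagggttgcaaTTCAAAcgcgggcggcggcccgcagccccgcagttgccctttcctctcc
Ccnb2: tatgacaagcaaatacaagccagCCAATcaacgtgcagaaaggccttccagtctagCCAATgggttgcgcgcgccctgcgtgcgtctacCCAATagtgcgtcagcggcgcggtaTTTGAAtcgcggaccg
Cdc20: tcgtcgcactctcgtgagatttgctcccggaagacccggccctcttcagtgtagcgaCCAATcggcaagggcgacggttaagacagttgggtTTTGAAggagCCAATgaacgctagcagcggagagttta
Ccnb1: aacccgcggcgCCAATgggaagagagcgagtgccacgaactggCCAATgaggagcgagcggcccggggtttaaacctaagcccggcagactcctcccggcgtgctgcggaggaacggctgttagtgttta
Birc5: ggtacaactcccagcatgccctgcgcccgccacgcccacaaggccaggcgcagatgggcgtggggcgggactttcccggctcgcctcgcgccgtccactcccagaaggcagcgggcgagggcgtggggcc
Cdk1: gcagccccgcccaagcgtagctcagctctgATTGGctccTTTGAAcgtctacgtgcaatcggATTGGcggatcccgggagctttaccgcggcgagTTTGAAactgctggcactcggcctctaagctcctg
Bub3: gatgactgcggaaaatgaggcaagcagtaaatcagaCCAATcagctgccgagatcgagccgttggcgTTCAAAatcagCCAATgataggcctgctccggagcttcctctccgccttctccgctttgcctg
Pttg1: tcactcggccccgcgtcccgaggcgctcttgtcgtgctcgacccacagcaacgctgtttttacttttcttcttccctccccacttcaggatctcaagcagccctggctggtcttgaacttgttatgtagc
The segments lie at chr2:164769819-164769948 on the plus strand (*Ube2c*), chr9:70421535-70421664 on the minus strand (*Ccnb2*), chr4:118437324-118437453 on the minus strand (*Cdc20*), chr13:100786467-100786596 on the minus strand (*Ccnb1*), chr11:117849127-117849256 on the plus strand (*Birc5*), chr10:69352893-69353022 on the minus strand (*Cdk1*), chr7:131560260-131560389 on the plus strand (*Bub3*) and chr11:43425962-43426091 on the minus strand (*Pttg1*). The segments of *Ube2c*, *Ccnb2*, *Cdc20*, *Cdk1* and *Bub3* hold both elements, that of *Ccnb1* holds CCAAT alone, and those of *Birc5* and *Pttg1* hold neither. The RefSeq window of *Pttg1* lies wholly inside its annotated gene span (chr11:43420250-43426251, minus strand). The bases before the annotated start of *Pttg1* were thus not searched. TTTGAA on either strand occurred in the 300 bases of 32 of 40 members (80.0%), against 5466 of 27025 genes (20.2%). CCAAT occurred in 30 of 40 members (75.0%) against 41.1% of genes, and both elements in 27 of 40 (67.5%) against 7.97%. In 30 of the 35 member promoters with TTTGAA, some genes having more than 1 start, the nearest copy lay within 60 bases of the start. The 8 members without it in these windows were *Birc5*, *Bub1*, *Ccnb1*, *Cenpe*, *Mad2l1*, *Nuf2*, *Nusap1* and *Pttg1*. These letter matches are a description of the window and not of binding.

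The deposited FPKM mostly divide reads by the whole span of a gene, introns included. The length they imply was within 0.1% of the annotated span in 75.3% of 9843 genes averaging 100 reads or more. It matched the exon length in 2.1%. The values of long genes such as *Tpx2* or *Kif4* are thus small for their read number, and values are compared within a gene only. Each value is a whole multiple of 1 read, which gave the reads back: 19966708 to 25553546 assigned reads per library. In all, 2 fits with limma are used and named throughout, where the FPKM fit tests log2(FPKM + 0.1) for genes averaging 0.5 FPKM or more, and the read fit tests the recovered reads with voom for genes averaging 10 reads or more. In the read fit the median gene lay 0.11 to 0.13 above 0 (log2) between genotypes at each time, against −0.04 to −0.06 in the FPKM fit, so small differences in it are to be read against that shift. *Zfp36* itself was read at 201 to 213 FPKM in WT and 87.4 to 102 FPKM in TTP-/- cells before LPS, and every TTP-/- library was below every WT library at each time. Only 20 members passed the FPKM filter, and 10 of these had a mean under 0.5 FPKM in the 12 WT libraries and so passed through the TTP-/- libraries; all 45 were in the read fit, at 0 h with at least 10 reads on average in WT cells as well. Libraries of a group are called replicates 1 to 3, errors are standard errors (SE) of log2 fold changes (TTP-/- minus WT unless another contrast is named), and p-values are adjusted over all genes tested.

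Before LPS, mitotic genes were higher in TTP-/- than in WT cells throughout the list. All 45 members were higher in the read fit, by a median of 2.39 on the log2 scale (range 0.37 to 3.42), where 23.0% of the 14487 genes tested were higher and the median gene lay at 0.11. The FPKM fit found 18 of the 20 members tested higher and none lower, with a median of 2.13, against 13.9% of 8346 genes higher. Since 10 of these 20 passed the filter through the TTP-/- libraries, this count is partly set by the filter. In all 45 members, the 20 past the FPKM filter among them, every TTP-/- library lay above every WT library. Of all genes past that filter, this was so for 21.0%. Summed over the members, the reads made up 499 to 561 RPM (reads scaled to the assigned total of the library) in WT and 1914 to 2999 RPM in TTP-/- libraries. RNA was taken from whole cultures, so that more cells with mitotic RNA and more of it per cell cannot be told apart.

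**Figure D1:**
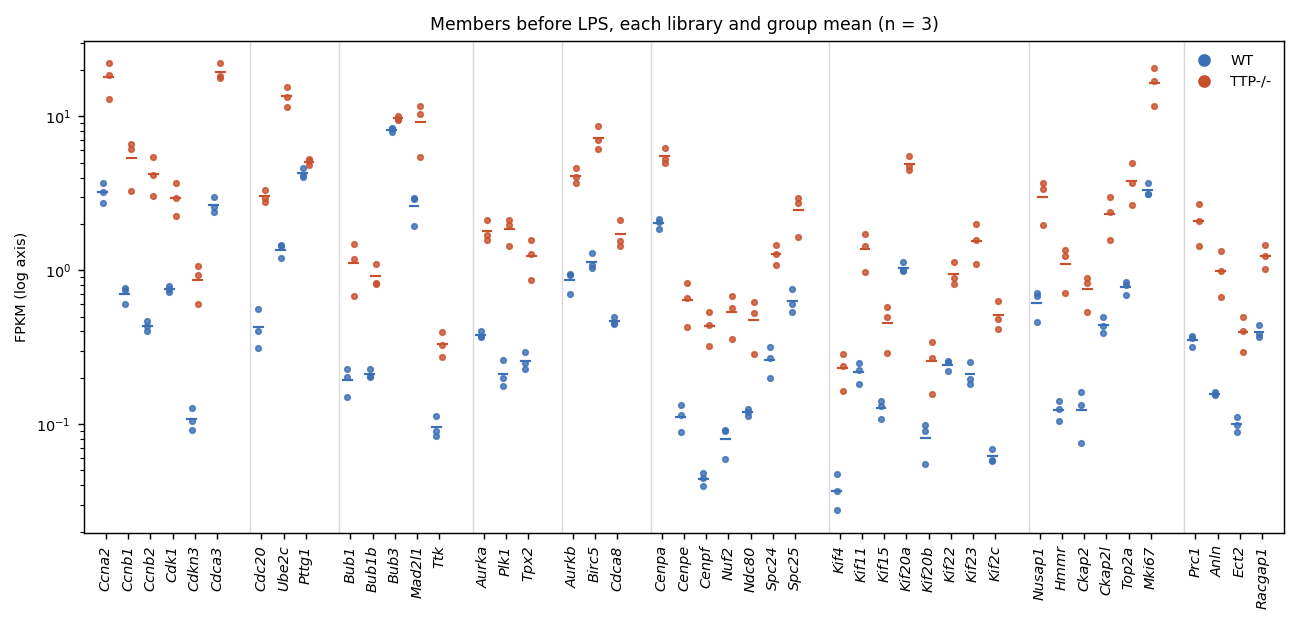
FPKM of the 45 members before LPS (log axis), 1 point per library, WT and TTP-/- in different colours, genes grouped by role. In each gene the 3 TTP-/- points lie above the 3 WT points, and the gap is narrowest in Pttg1 and Bub3.

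The higher levels lasted during LPS. The read fit called 45 members higher at 3 h, 42 at 6 h and 42 at 9 h, with medians of 2.13, 2.02 and 1.73 and no member lower, where 23.0, 18.7 and 26.5% of all genes were higher. The FPKM fit called 18, 15 and 17 of 20 higher, with medians of 1.59, 1.36 and 1.27, and none lower, against 11.3, 10.4 and 17.7% of genes. The same 20 members were tested there, 10 of them past the filter through the TTP-/- libraries. In the read fit 2, 6 and 7 members averaged under 10 reads in WT cells at these times and entered through the TTP-/- libraries. At 6 h, libraries of equal replicate number were correlated in their deviations from the group means (0.215 to 0.505), though no label pairs them. A fit blocked by number at 6 h gave 18 of 20 and 44 of 45, where 15.0 and 26.4% of all genes were higher. Every TTP-/- library lay above every WT library in 44, 43 and 41 of 45 members. Among the 20 members past the FPKM filter this was so in 19, 19 and 18, against 18.4, 17.0 and 22.6% of genes past that filter. The sum over the members was 496 to 528 RPM in WT and 913 to 1069 in TTP-/- cells at 3 h, 296 to 366 and 634 to 719 at 6 h, and 286 to 297 and 541 to 650 at 9 h. A few highly read members carried much of these sums, which do not describe the list evenly. In WT replicate 1, *Mki67* had 5794 reads at 3 h. In the same replicate at 9 h, *Pttg1* had 1986 and *Bub3* 1614 reads, and no other member had more than the 633 of *Mki67*. With 3 against 3 libraries an exact permutation test of a single gene cannot give a p below 0.1, so that single genes were called from the fits alone.

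**Figure D2:**
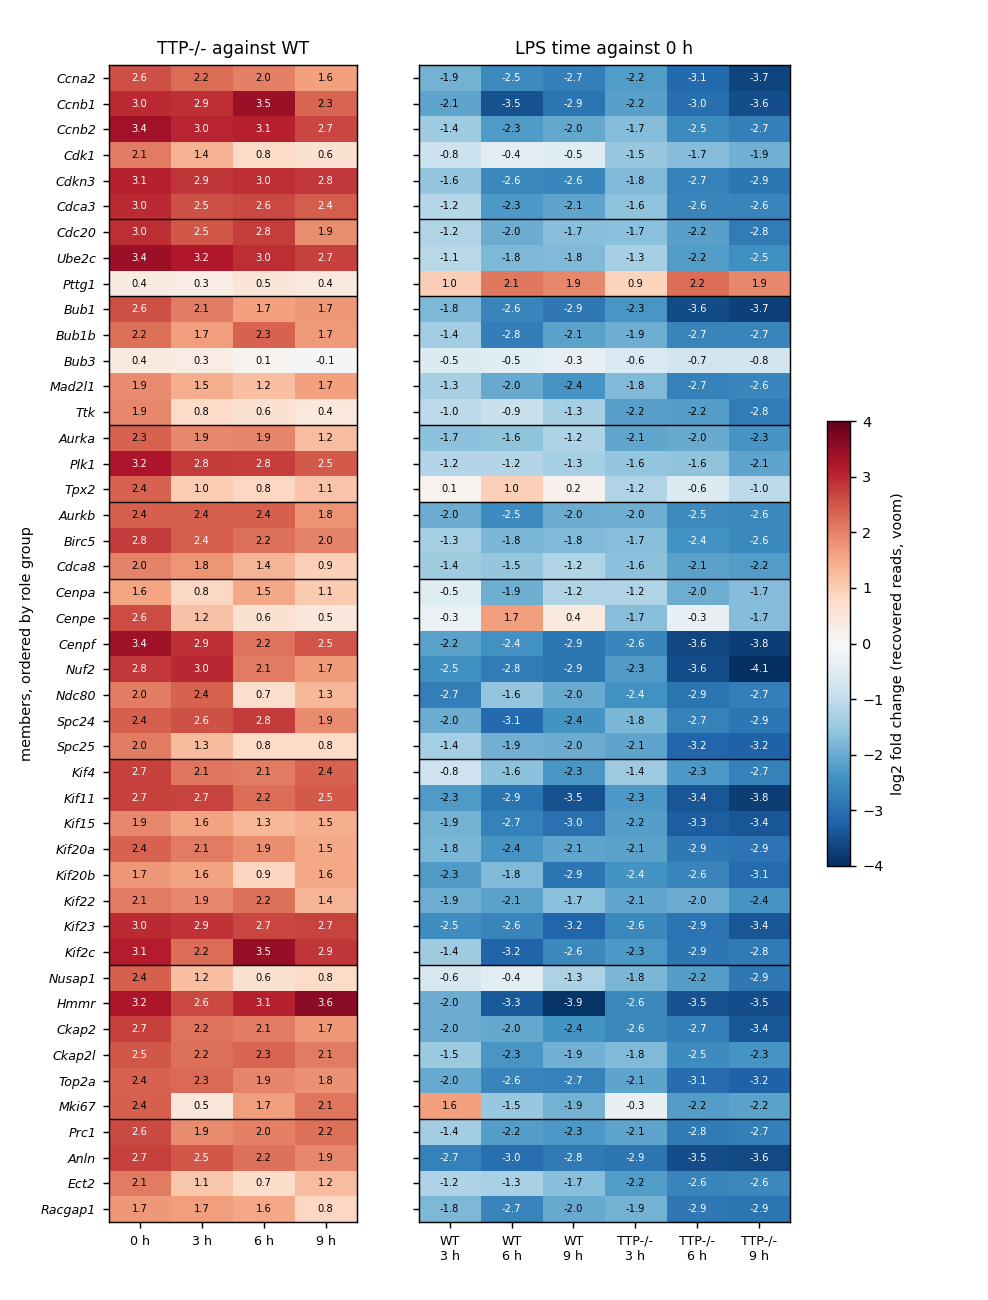
Log2 fold changes of the 45 members from the read fit (rows by role group, numbers and colours give the value), on the left TTP-/- against WT before LPS and at the 3 later times, on the right each LPS time against 0 h in WT and in TTP-/- cells. On the left nearly all cells are red, with Bub3 and Pttg1 palest, and on the right nearly all are blue, with Pttg1 red in both genotypes and Mki67 red at 3 h in WT cells.

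Libraries within a group differed in a common direction across the members. TTP-/- replicate 1 at 0 h was the highest of its group in 42 of 45 members and replicate 3 the lowest in 37, and WT replicate 1 at 3 h was the highest of its group in 31. At 9 h TTP-/- replicate 2 was the highest in 36. Without TTP-/- replicate 3 at 0 h, 18 of 20 and 45 of 45 members were higher in the FPKM and the read fit. Of all genes, 1352 of 8346 and 3960 of 14487 were higher there. Dropping WT replicate 1 of 3 h also left 18 and 45, where 1492 of 8350 and 4164 of 13870 genes were higher. Both drops widened the median difference of the FPKM fit, to 2.35 and 1.75, so they could not show whether the calls hold. Leaving out TTP-/- replicate 1 or WT replicate 2 (lowest in 28 members) of 0 h gave 18 of 20 and 43 of 45. Over all genes, 778 of 8346 and 2532 of 14487 were higher without the former, and 1012 and 3114 without the latter. Losing TTP-/- replicate 1 of 3 h (highest in 30) gave 15 of 20 and 42 of 45, with 557 of 8350 and 2321 of 13870 genes higher. Losing WT replicate 3 of that time (lowest in 24) gave 17 and 45, with 767 of 8350 and 2825 of 13870 genes higher.

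The cyclins and their kinase were all higher in TTP-/- cells at all 4 times in the read fit, 6 of 6 members, with medians of 2.98, 2.70, 2.79 and 2.39. *Ccna2* encodes cyclin A2, which partners CDK2 in S phase and CDK1 on entry into mitosis. It was at 3.71, 2.72 and 3.21 FPKM in the WT libraries against 22.2, 18.6 and 12.9 FPKM in those of TTP-/- cells before LPS, a log2 fold change of 2.42 (SE 0.219, adjusted p = 0.000549) in the FPKM fit. Later it was at 0.983, 0.865 and 0.769 FPKM in WT against 4.24, 3.15 and 3.81 in TTP-/- cells at 3 h, 0.769, 0.428 and 0.519 against 1.903, 1.88 and 2.32 at 6 h, and 0.388, 0.528 and 0.546 against 1.42, 1.504 and 1.202 at 9 h. Both genotypes thus lost most of the transcript by 3 h, and the groups stayed apart, with log2 fold changes of 1.97, 1.69 and 1.33 (adjusted p = 0.000278, 0.00133 and 0.00039). The gene overlaps *Exosc9* on the opposite strand by 863 bases, and since the strand setting of the counting is not given in the sources used here, reads of the overlap cannot be assigned to either.

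*Ccnb1* encodes cyclin B1, the activator of CDK1 at mitotic entry. Its values at 0 h were 0.741, 0.599 and 0.771 FPKM in the WT libraries against 6.59, 6.15 and 3.26 FPKM in those of TTP-/- cells (log2 fold change 2.699 (SE 0.266, adjusted p = 0.000709), FPKM fit). It then was at 0.199, 0.204 and 0.104 FPKM in WT against 1.21, 0.985 and 1.199 in TTP-/- cells at 3 h, 0.0947, 0.0657 and 0.0353 against 0.766, 0.449 and 0.742 at 6 h, and 0.119, 0.0861 and 0.07095 against 0.399, 0.508 and 0.397 at 9 h. Its differences of 2.21, 2.17 and 1.48 on the FPKM scale (adjusted p = 0.000596, 0.000934 and 0.000405) were 2.92, 3.47 and 2.34 in the read fit, where 17, 11 and 6 reads in WT and 137, 89 and 128 reads in TTP-/- cells lay behind the value at 6 h. The constant of 0.1 thus took up much of the change in a transcript this low. *Ccnb2*, the second B-type cyclin, was at 0.465, 0.405 and 0.434 FPKM in the WT libraries against 5.46, 4.16 and 3.03 FPKM in those of TTP-/- cells before LPS (FPKM fit 2.97 (SE 0.207, adjusted p = 0.000243)). It was at 0.213, 0.127 and 0.157 FPKM in WT against 1.42, 1.02 and 1.29 in TTP-/- cells at 3 h, 0.102, 0.07503 and 0.0942 against 0.687, 0.611 and 0.841 at 6 h, and 0.107, 0.162 and 0.0642 against 0.567, 0.849 and 0.499 at 9 h, and no WT library reached the lowest TTP-/- library at any time.

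*Cdca3*, which triggers degradation of the mitosis inhibitor WEE1, was at 2.99, 2.58 and 2.41 FPKM in the WT libraries against 22.2, 17.7 and 18.2 FPKM in those of TTP-/- cells before LPS (2.82 (SE 0.137, adjusted p = 0.000115), FPKM fit). It was at 1.87, 1.05 and 0.872 FPKM in WT against 6.93, 5.28 and 6.93 in TTP-/- cells at 3 h, 0.584, 0.455 and 0.618 against 2.61, 3.03 and 3.69 at 6 h, and 0.594, 0.774 and 0.507 against 3.08, 3.605 and 2.66 at 9 h. Its difference of 2.82 before LPS was followed by 2.31, 2.29 and 2.15 after LPS (adjusted p = 0.00204, 0.000135 and 8.27e-05). *Cdk1*, the kinase that these cyclins activate, behaved differently: its values were 0.788, 0.751 and 0.718 FPKM in the WT libraries against 3.67, 2.94 and 2.26 FPKM in those of TTP-/- cells at 0 h (1.82 (SE 0.176, adjusted p = 0.000678), FPKM fit). They were 0.445, 0.429 and 0.391 FPKM in WT against 1.15, 0.907 and 0.962 in TTP-/- cells at 3 h, 0.677, 0.467 and 0.575 against 0.861, 0.7602 and 1.01 at 6 h, and 0.586, 0.517 and 0.526 against 0.697, 0.895 and 0.727 at 9 h. WT cells kept much of their level, and the difference went to 1.08 at 3 h, 0.54 at 6 h (adjusted p = 0.0643, passing with the replicate block) and 0.44 at 9 h (adjusted p = 0.0237). The read fit called it higher at all 4 times, with 0.76 at 6 h (adjusted p = 0.0132). *Cdkn3*, a phosphatase that acts on CDKs, was at 0.126, 0.09099 and 0.105 FPKM in the WT libraries against 1.06, 0.935 and 0.603 FPKM in those of TTP-/- cells, with differences of 2.82 to 3.08 in the read fit.

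Before LPS, the members that act on the anaphase-promoting complex (APC/C) included the largest difference of the list and a difference among its smallest. *Ube2c*, the E2 enzyme that hands ubiquitin to APC/C substrates, had the largest log2 fold change of all members at 0 h in both fits. It was at 1.46, 1.43 and 1.198 FPKM in the WT libraries against 15.6, 13.4 and 11.5 FPKM in those of TTP-/- cells, and the value of 3.42 in the read fit rested on 320, 306 and 231 reads in WT and 3549, 2928 and 2688 reads in TTP-/- cells. Later it was at 0.9199, 0.575 and 0.471 FPKM in WT against 6.11, 4.66 and 5.29 in TTP-/- cells at 3 h, 0.4203, 0.323 and 0.465 against 2.55, 2.69 and 3.301 at 6 h, and 0.342, 0.398 and 0.462 against 2.36, 3.13 and 1.997 at 9 h. The difference was 2.89, 2.55 and 2.36 in the FPKM fit (adjusted p = 0.000443, 8.17e-05 and 7.14e-05), the largest among the 20 members tested there at each of these times. *Cdc20*, which activates the APC/C once the checkpoint is silent, was at 0.403, 0.561 and 0.312 FPKM in the WT libraries against 3.32, 2.79 and 2.93 FPKM in those of TTP-/- cells (2.59 (SE 0.185, adjusted p = 0.000262), FPKM fit). It was at 0.172, 0.2195 and 0.152 FPKM in WT against 0.984, 0.828 and 0.981 in TTP-/- cells at 3 h, 0.0694, 0.138 and 0.115 against 0.557, 0.629 and 0.856 at 6 h, and 0.151, 0.153 and 0.0842 against 0.605, 0.3702 and 0.349 at 9 h, so that the groups did not overlap. The gene overlaps the highly read *Elovl1* on the opposite strand by 53 bases, against 79.2 reads on average for *Cdc20* and 2567 for *Elovl1*.

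*Pttg1* encodes securin, which blocks separase until the APC/C removes it. It was at 4.65, 4.004 and 4.13 FPKM in the WT libraries against 4.79, 5.304 and 5.11 FPKM in those of TTP-/- cells before LPS, a log2 fold change of 0.25 (SE 0.107, adjusted p = 0.132) in the FPKM fit and 0.37 (SE 0.119, adjusted p = 0.0382) in the read fit. Later it was at 7.58, 8.19 and 9.61 FPKM in WT against 9.53, 9.63 and 9.25 in TTP-/- cells at 3 h, 18.3, 17.8 and 19.3 against 22.3, 23.2 and 25.7 at 6 h, and 14.9, 18.2 and 15.7 against 17.02, 20.7 and 20.6 at 9 h. Its level went up with LPS in both genotypes while that of nearly all other members went down, and the groups overlapped at 3 and 9 h. Differences between genotypes were 0.17, 0.36 and 0.26 in the FPKM fit (adjusted p = 0.276, 0.0734 and 0.14), where none passed, and 0.305, 0.51 and 0.39 in the read fit (adjusted p = 0.0438, 0.0123 and 0.0144), to be read against its shift of 0.11 to 0.13. With the block at 6 h *Pttg1* passed in the FPKM fit as well.

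Of the 5 spindle checkpoint genes, all were higher in TTP-/- cells at 0 and 3 h in the read fit (medians 1.91 and 1.46) and 3 at 6 and 9 h. *Bub3*, which carries BUB1 and BUBR1 to the kinetochore and also has a role in splicing, was at 8.35, 7.91 and 8.302 FPKM in the WT libraries against 9.67, 9.51 and 10.1 FPKM in those of TTP-/- cells before LPS, a difference of 0.25 (SE 0.0951, adjusted p = 0.0935) in the FPKM fit and 0.37 (SE 0.102, adjusted p = 0.0194) in the read fit. It was at 5.44, 5.8 and 5.702 FPKM in WT against 6.48, 6.24 and 6.33 in TTP-/- cells at 3 h, 6.08, 5.55 and 6.15 against 5.69, 5.59 and 6.196 at 6 h, and 6.29, 6.65 and 6.65 against 5.66, 5.64 and 5.805 at 9 h. At 9 h every TTP-/- library lay below every WT library in FPKM, at −0.19 (SE 0.0746, adjusted p = 0.0853), and the read fit gave −0.07 (SE 0.090, adjusted p = 0.599). The value of −0.19 was called lower in the FPKM-type fit without a filter and in 1 fit of all 24 libraries. *Bub3* had the lowest difference of the members at 6 and 9 h in both fits, at 3 h it was level with *Pttg1*, and in the read fit at 9 h it was the only member below 0.

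*Mad2l1* encodes MAD2, the checkpoint protein that binds CDC20. It was at 2.92, 1.93 and 2.93 FPKM in the WT libraries against 11.7, 10.3 and 5.47 FPKM in those of TTP-/- cells before LPS (1.73 (SE 0.306, adjusted p = 0.00646), FPKM fit), the lowest TTP-/- value being that of replicate 3. It was at 1.17, 0.996 and 0.8905 FPKM in WT against 3.103, 2.12 and 2.49 in TTP-/- cells at 3 h, 0.813, 0.461 and 0.678 against 1.34, 1.204 and 1.42 at 6 h, and 0.421, 0.552 and 0.523 against 1.303, 1.91 and 1.21 at 9 h. The differences of 1.25, 0.95 and 1.37 all passed the threshold (adjusted p = 0.00277, 0.0147 and 0.00103). *Bub1* and *Bub1b*, the kinase BUB1 and the checkpoint protein BUBR1, were tested in the read fit alone and were higher at each time, at 2.58 and 2.22 before LPS and 1.73 and 1.696 at 9 h. *Ttk*, the checkpoint kinase MPS1, fell short of this: after 1.91 (SE 0.197, adjusted p = 0.000147) at 0 h and 0.78 (SE 0.231, adjusted p = 0.0306) at 3 h it was at 0.602 (SE 0.241, adjusted p = 0.103) at 6 h and 0.43 (SE 0.273, adjusted p = 0.244) at 9 h. At 9 h its 25, 27 and 41 reads in WT and 43, 29 and 51 reads in TTP-/- cells overlapped. With the replicate block at 6 h *Ttk* passed.

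Among the mitotic kinases, *Aurka*, *Plk1* and the Aurora A activator *Tpx2* were higher in TTP-/- cells at all 4 times in the read fit. *Plk1*, which drives centrosome maturation and mitotic entry, was at 0.199, 0.259 and 0.177 FPKM in the WT libraries against 1.98, 1.43 and 2.12 FPKM in those of TTP-/- cells before LPS, a read fit difference of 3.23 (SE 0.246, adjusted p = 4.14e-05). It was at 0.16, 0.0983 and 0.0509 FPKM in WT against 0.644, 0.555 and 0.609 in TTP-/- cells at 3 h, 0.0719, 0.122 and 0.0939 against 0.484, 0.532 and 0.791 at 6 h, and 0.0731, 0.112 and 0.0673 against 0.397, 0.487 and 0.396 at 9 h. Its differences of 2.797, 2.76 and 2.46 in the read fit (adjusted p = 0.000214, 6.46e-05 and 8.79e-06) stayed among the larger ones of the list. *Aurka*, the kinase Aurora A of the spindle poles, had 2.35 at 0 h and 1.24 at 9 h in the same fit.

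*Tpx2* was at 0.292, 0.2295 and 0.248 FPKM in the WT libraries against 1.58, 1.28 and 0.864 FPKM in those of TTP-/- cells before LPS (1.88 (SE 0.212, adjusted p = 0.00109), FPKM fit). It was at 0.284, 0.2404 and 0.3398 FPKM in WT against 0.618, 0.505 and 0.458 in TTP-/- cells at 3 h, 0.588, 0.438 and 0.504 against 0.877, 0.7699 and 0.793 at 6 h, and 0.276, 0.335 and 0.258 against 0.545, 0.668 and 0.554 at 9 h. The WT level was higher at 6 h than before LPS while the TTP-/- level was lower, and the difference between genotypes was 0.69, 0.59 and 0.82 in the FPKM fit (adjusted p = 0.0185, 0.0254 and 0.00249). No WT library overlapped a TTP-/- library at any time.

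The chromosomal passenger complex corrects faulty attachments at the centromere and later acts in cytokinesis, and its 3 members were higher at all 4 times in the read fit. *Aurkb*, its kinase Aurora B, was at 0.942, 0.934 and 0.6997 FPKM in the WT libraries against 4.63, 3.69 and 4.02 FPKM in those of TTP-/- cells before LPS (2.14 (SE 0.149, adjusted p = 0.000243), FPKM fit). It was at 0.381, 0.203 and 0.128 FPKM in WT against 1.001, 1.04 and 1.11 in TTP-/- cells at 3 h, 0.154, 0.0943 and 0.225 against 0.677, 0.598 and 0.915 at 6 h, and 0.164, 0.251 and 0.233 against 0.824, 0.628 and 0.602 at 9 h. Its differences were 1.84, 1.701 and 1.31 in the FPKM fit (adjusted p = 0.00422, 0.00278 and 0.000858) and 2.399, 2.38 and 1.79 in the read fit. *Birc5*, which encodes survivin, was at 1.08, 1.29 and 1.03 FPKM in the WT libraries against 8.62, 7.05 and 6.17 FPKM in those of TTP-/- cells at 0 h. It was at 0.618, 0.399 and 0.372 FPKM in WT against 2.35, 2.07 and 2.21 in TTP-/- cells at 3 h, 0.333, 0.3205 and 0.302 against 1.08, 1.31 and 1.696 at 6 h, and 0.2903, 0.405 and 0.303 against 1.19, 1.32 and 1.15 at 9 h. The differences after LPS of 2.06, 1.78 and 1.61 (adjusted p = 0.000546, 0.000477 and 9.89e-05, FPKM fit) followed 2.57 at 0 h. *Cdca8*, the subunit borealin, was at 1.97 at 0 h and 0.94 at 9 h in the read fit.

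The 7 centromere and kinetochore members were all higher at 0 and 3 h in the read fit (medians 2.39 and 2.36), and 6 of 7 at 6 and at 9 h. *Cenpa*, the histone H3 variant that marks the centromere, was at 2.14, 2.04 and 1.85 FPKM in the WT libraries against 6.197, 5.32 and 4.99 FPKM in those of TTP-/- cells before LPS (1.403 (SE 0.122, adjusted p = 0.000466), FPKM fit). It was at 1.73, 1.47 and 1.24 FPKM in WT against 2.61, 2.13 and 2.45 in TTP-/- cells at 3 h, 0.444, 0.499 and 0.661 against 1.19, 1.39 and 1.65 at 6 h, and 0.864, 0.883 and 0.867 against 1.54, 1.86 and 1.596 at 9 h. Its differences were 0.67, 1.25 and 0.86 (adjusted p = 0.0146, 0.00295 and 0.000462), smallest at 3 h. *Spc25*, a subunit of the NDC80 complex that grips microtubules, was at 0.749, 0.603 and 0.538 FPKM in the WT libraries against 2.95, 2.74 and 1.66 FPKM in those of TTP-/- cells before LPS (1.77 (SE 0.2302, adjusted p = 0.00186), FPKM fit). It was at 0.241, 0.2503 and 0.248 FPKM in WT against 0.641, 0.455 and 0.541 in TTP-/- cells at 3 h, 0.2296, 0.135 and 0.148 against 0.2305, 0.254 and 0.302 at 6 h, and 0.168, 0.119 and 0.194 against 0.236, 0.288 and 0.233 at 9 h. WT replicate 1 and TTP-/- replicate 1 were nearly equal at 6 h, and the difference did not pass in the FPKM fit at 6 or 9 h (0.43, adjusted p = 0.178, and 0.44, adjusted p = 0.0703) but did in the read fit (0.79, adjusted p = 0.0475, and 0.79, adjusted p = 0.0169). The 2 fits thus disagree on *Spc25* at these times, and the replicate block did not change the FPKM call at 6 h.

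*Spc24*, the partner of SPC25, was at 0.269, 0.318 and 0.201 FPKM in the WT libraries against 1.46, 1.27 and 1.08 FPKM in those of TTP-/- cells before LPS (2.39 (SE 0.236, adjusted p = 0.000124), read fit). It was at 0.108, 0.0706 and 0.0299 FPKM in WT against 0.438, 0.277 and 0.359 in TTP-/- cells at 3 h, 0.0182, 0.0195 and 0.0482 against 0.183, 0.182 and 0.208 at 6 h, and 0.0463, 0.0302 and 0.0677 against 0.132, 0.2401 and 0.148 at 9 h. Its differences of 2.56, 2.81 and 1.88 rested on few reads, 2, 2 and 5 reads in WT and 20, 22 and 22 reads in TTP-/- cells at 6 h. *Cenpf*, a large kinetochore protein of the late cell cycle, had 3.38 (SE 0.244, adjusted p = 3.71e-05) before LPS, close to *Ube2c*. *Nuf2* and *Ndc80*, the other subunits of the NDC80 complex, were at 2.83 and 2.04 at 0 h in the read fit. *Ndc80* did not pass at 6 h (0.703 (SE 0.284, adjusted p = 0.107)) without the replicate block and did with it.

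*Cenpe*, the kinetochore motor CENP-E, was at 0.132, 0.0888 and 0.114 FPKM in the WT libraries against 0.826, 0.6596 and 0.4299 FPKM in those of TTP-/- cells before LPS (2.601 (SE 0.2595, adjusted p = 0.000127), read fit). It was at 0.09001, 0.0913 and 0.0975 FPKM in WT against 0.199, 0.171 and 0.201 in TTP-/- cells at 3 h, 0.441, 0.323 and 0.322 against 0.527, 0.537 and 0.408 at 6 h, and 0.152, 0.102 and 0.2004 against 0.1801, 0.219 and 0.1598 at 9 h. The WT libraries at 6 h lay above those at 0, 3 and 9 h, and the groups overlapped at 6 and 9 h. The read fit gave 0.59 (SE 0.179, adjusted p = 0.0345) at 6 h and 0.46 (SE 0.223, adjusted p = 0.129) at 9 h.

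The 8 kinesin motors, which slide, carry or depolymerize spindle microtubules, were higher in TTP-/- cells at every time in the read fit, 8 of 8 with medians of 2.55, 2.10, 2.14 and 1.96. *Kif20a*, a motor of the central spindle and the only kinesin past the FPKM filter, was at 1.001, 0.988 and 1.14 FPKM in the WT libraries against 5.501, 4.79 and 4.5 FPKM in those of TTP-/- cells before LPS (2.14 (SE 0.119, adjusted p = 0.000146), FPKM fit). It was at 0.354, 0.305 and 0.229 FPKM in WT against 1.299, 1.03 and 1.06 in TTP-/- cells at 3 h, 0.271, 0.29 and 0.108 against 0.543, 0.736 and 0.759 at 6 h, and 0.254, 0.265 and 0.201 against 0.623, 0.785 and 0.529 at 9 h. Its differences were 1.64, 1.31 and 1.12 (adjusted p = 0.000878, 0.0157 and 0.00149). The gene shares 2327 bases with *Cdc23* on the opposite strand, itself 0.73 higher at 0 h, so part of its reads could belong to either gene.

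*Kif11*, the motor that separates the spindle poles, was at 0.249, 0.181 and 0.224 FPKM in the WT libraries against 1.71, 1.43 and 0.976 FPKM in those of TTP-/- cells before LPS (2.74 (SE 0.222, adjusted p = 5.07e-05), read fit). It was at 0.0598, 0.0451 and 0.03295 FPKM in WT against 0.299, 0.221 and 0.288 in TTP-/- cells at 3 h, 0.0388, 0.0187 and 0.0318 against 0.126, 0.107 and 0.137 at 6 h, and 0.0109, 0.0236 and 0.0268 against 0.101, 0.0949 and 0.0971 at 9 h. The differences were 2.71, 2.23 and 2.46 (adjusted p = 6.1e-05, 0.000157 and 2.84e-05), so that the fold changed little while the level fell in both genotypes. *Kif23*, a subunit of the centralspindlin complex, was at 0.254, 0.182 and 0.196 FPKM in the WT libraries against 1.997, 1.57 and 1.101 FPKM in those of TTP-/- cells before LPS (2.97 (SE 0.243, adjusted p = 5.4e-05), read fit). It was at 0.0485, 0.0248 and 0.0409 FPKM in WT against 0.251, 0.224 and 0.292 in TTP-/- cells at 3 h, 0.0463, 0.0256 and 0.0316 against 0.165, 0.209 and 0.214 at 6 h, and 0.0243, 0.0181 and 0.02697 against 0.164, 0.1297 and 0.131 at 9 h. Its differences of 2.901, 2.66 and 2.71 (adjusted p = 7.51e-05, 4.17e-05 and 8.18e-06) were the steadiest among the motors named. *Kif2c*, which depolymerizes microtubules, had a difference of 3.47 at 6 h (SE 0.55), the largest of all members there together with *Ccnb1* (3.47), but on 10, 2 and 1 reads in WT and 39, 41 and 28 reads in TTP-/- cells. *Kif4*, *Kif15*, *Kif20b* and *Kif22* had 2.74, 1.91, 1.75 and 2.07 at 0 h.

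All 6 spindle and chromosome proteins were higher at every time in the read fit, with medians of 2.44, 2.19, 2.00 and 1.95. *Mki67* encodes Ki-67, which coats mitotic chromosomes and is used as a marker of proliferating cells. It was at 3.68, 3.13 and 3.15 FPKM in the WT libraries against 20.6, 16.9 and 11.8 FPKM in those of TTP-/- cells before LPS (2.24 (SE 0.208, adjusted p = 0.000605), FPKM fit). It was at 10.4, 10.5 and 10.2 FPKM in WT against 13.98, 12.4 and 12.8 in TTP-/- cells at 3 h, 1.42, 1.18 and 0.9895 against 3.67, 3.204 and 3.37 at 6 h, and 1.07, 0.7398 and 0.891 against 3.52, 4.59 and 2.87 at 9 h. At 3 h the WT libraries were close to the TTP-/- libraries, and the groups were 0.33 apart (adjusted p = 0.0229), and at 6 and 9 h they were again 1.45 and 1.899 apart (adjusted p = 0.00066 and 0.0003).

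*Top2a*, the topoisomerase that untangles sister chromatids, was at 0.8001, 0.685 and 0.834 FPKM in the WT libraries against 4.996, 3.71 and 2.65 FPKM in those of TTP-/- cells before LPS (2.11 (SE 0.222, adjusted p = 0.000861), FPKM fit). It was at 0.249, 0.161 and 0.172 FPKM in WT against 0.953, 0.7202 and 0.863 in TTP-/- cells at 3 h, 0.165, 0.117 and 0.103 against 0.428, 0.3903 and 0.501 at 6 h, and 0.142, 0.123 and 0.0959 against 0.357, 0.4901 and 0.3399 at 9 h. The differences were 1.69, 1.25 and 1.16 in the FPKM fit and 2.27, 1.94 and 1.83 in the read fit, and the groups did not overlap. *Nusap1*, a microtubule-binding protein of the spindle, was at 0.709, 0.458 and 0.675 FPKM in the WT libraries against 3.71, 3.36 and 1.96 FPKM in those of TTP-/- cells before LPS (2.09 (SE 0.262, adjusted p = 0.00165), FPKM fit). It was at 0.368, 0.3796 and 0.428 FPKM in WT against 0.892, 0.661 and 0.924 in TTP-/- cells at 3 h, 0.513, 0.412 and 0.428 against 0.682, 0.589 and 0.607 at 6 h, and 0.232, 0.273 and 0.257 against 0.361, 0.5001 and 0.356 at 9 h. It went to 0.902, 0.400 and 0.504 (adjusted p = 0.00559, 0.0835 and 0.0321), so that the call was missed at 6 h without the replicate block and made with it. *Hmmr*, a spindle protein first known as a hyaluronan receptor, had 3.62 (SE 0.392, adjusted p = 1.78e-05) at 9 h, the largest of all members at that time, on 4, 4 and 8 reads in WT and 67, 77 and 58 reads in TTP-/- cells. *Ckap2* and *Ckap2l*, which bind spindle microtubules, were at 2.75 and 2.48 at 0 h in the read fit.

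None of the 4 cytokinesis genes passed the FPKM filter, and all 4 were higher at each time in the read fit, with medians of 2.36, 1.79, 1.79 and 1.58. *Prc1*, which bundles microtubules of the central spindle, was at 0.374, 0.319 and 0.361 FPKM in the WT libraries against 2.7, 2.09 and 1.44 FPKM in those of TTP-/- cells before LPS (2.64 (SE 0.235, adjusted p = 7.75e-05)). It was at 0.193, 0.0896 and 0.142 FPKM in WT against 0.566, 0.406 and 0.426 in TTP-/- cells at 3 h, 0.111, 0.06504 and 0.06204 against 0.268, 0.249 and 0.345 at 6 h, and 0.0679, 0.0625 and 0.0859 against 0.268, 0.407 and 0.255 at 9 h. The differences were 1.902, 2.02 and 2.19 (adjusted p = 0.000568, 0.000241 and 2.8e-05). Its whole span of 21810 bases lies within *Rccd1* on the opposite strand, and the reads of the pair cannot be told apart without strand.

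*Racgap1*, the second subunit of centralspindlin, was at 0.385, 0.438 and 0.368 FPKM in the WT libraries against 1.46, 1.23 and 1.02 FPKM in those of TTP-/- cells before LPS (1.75 (SE 0.164, adjusted p = 9.83e-05), read fit). It was at 0.167, 0.103 and 0.0837 FPKM in WT against 0.364, 0.298 and 0.328 in TTP-/- cells at 3 h, 0.06797, 0.0728 and 0.0494 against 0.159, 0.136 and 0.218 at 6 h, and 0.0936, 0.106 and 0.0947 against 0.177, 0.182 and 0.131 at 9 h. Its differences were 1.67, 1.55 and 0.84 (adjusted p = 0.000505, 0.00105 and 0.00246), and the groups did not overlap. *Anln*, which encodes the contractile ring protein anillin, and *Ect2*, the activator of RhoA at the division plane, were at 2.72 and 2.09 at 0 h and at 1.93 and 1.23 at 9 h.

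Mitotic transcripts were lower after LPS than before it in both genotypes. No cells were left untreated for 3 to 9 h, so that LPS and time in culture cannot be told apart. Times were compared on the recovered reads set to 1 scale, since each deposited table was scaled on its own. In the FPKM-type fit of all 24 libraries, 17, 17 and 18 of 20 members were lower at 3, 6 and 9 h than at 0 h in WT cells, where 49.6, 55.8 and 54.1% of genes were lower, and 18, 19 and 19 in TTP-/- cells, against 48.0, 52.6 and 52.6%. Of these 20 members, 10 passed the filter through the TTP-/- libraries. The read fit gave 41, 41 and 42 of 45 lower in WT (55.0, 61.6 and 60.3% of genes) and 43, 43 and 44 in TTP-/- cells (52.6, 57.6 and 57.3% of genes). Of all genes, 48.0 to 61.6% were thus called lower on this scale, and the median gene fell by 0.51 to 0.63 in WT and by 0.45 to 0.56 in TTP-/- cells in the read fit. The members lay well below that: their median was −1.44, −2.13 and −2.05 in WT and −1.96, −2.64 and −2.73 in TTP-/- cells. Setting the median gene near 0 with median-of-ratios factors left 15, 15 and 16 of 20 members lower in WT, where 27.7, 30.2 and 31.4% of genes were lower, and 18, 18 and 19 in TTP-/- cells, against 28.3, 31.5 and 31.1%.

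**Figure D3:**
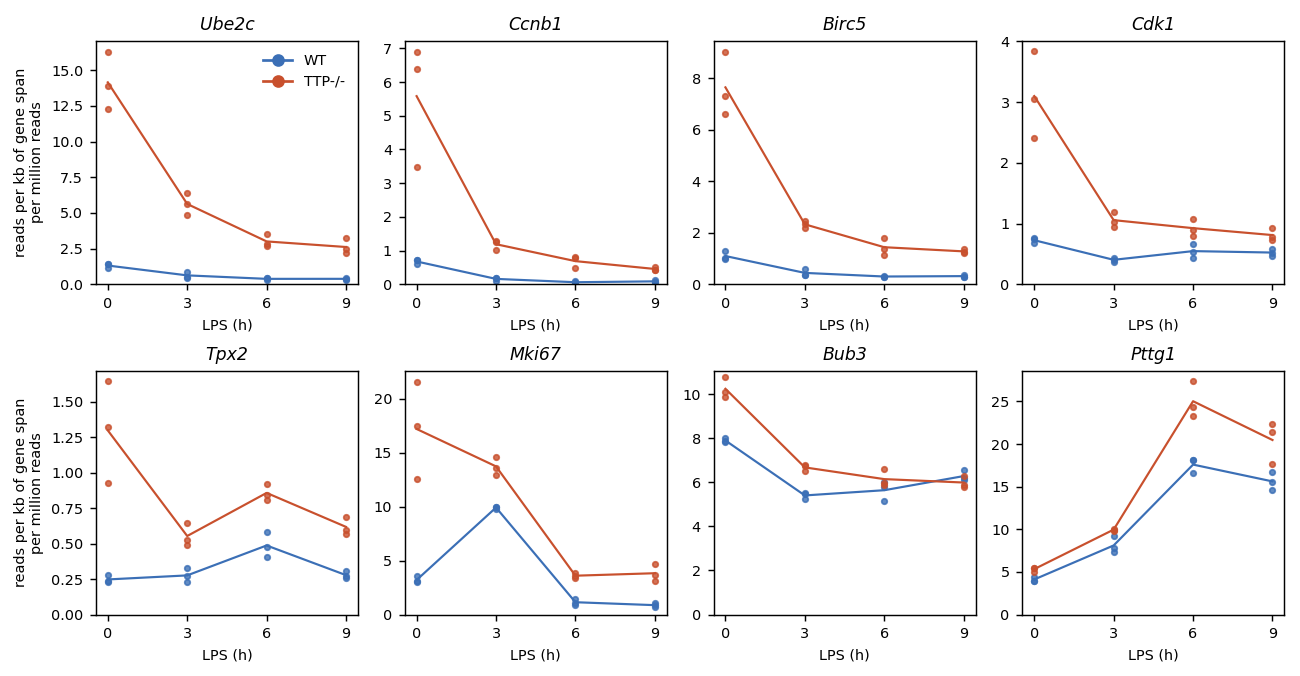
Level in RPM per kilobase of gene span (linear axis from 0) of Ube2c, Ccnb1, Birc5, Cdk1, Tpx2, Mki67, Bub3 and Pttg1 against hours of LPS, 1 point per library and a line through the means of WT and of TTP-/- cells. Ube2c, Ccnb1 and Birc5 fall in both genotypes with TTP-/- above WT, Pttg1 rises in both, and Mki67 peaks at 3 h in WT cells.

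The strongest falls by 9 h in the read fit were −3.94 for *Hmmr* and −3.48 for *Kif11* in WT, and −4.07 for *Nuf2* and −3.77 for *Cenpf* in TTP-/- cells. A few members rose instead. In the FPKM-type fit 2, 2 and 1 of 20 were higher than at 0 h in WT (14.7, 14.0 and 12.8% of genes) and 1 at each time in TTP-/- cells (16.4, 17.1 and 16.3%). By the read fit they were 2, 3 and 1 of 45 in WT (12.5, 11.9 and 10.4% of genes) and again 1 at each time in TTP-/- cells (14.5, 15.2 and 13.8%).

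*Pttg1* was the member that rose at each time in both genotypes. In the FPKM-type fit its change from 0 h was 0.96 (SE 0.101, adjusted p = 1.42e-07) at 3 h, 2.07 at 6 h and 1.899 at 9 h in WT cells. In TTP-/- cells it was 0.89, 2.21 and 1.92 (SE 0.101, adjusted p = 5.33e-12). *Mki67* rose at 3 h in WT cells by 1.605 (SE 0.181, adjusted p = 3.31e-07) and was at −0.29 (SE 0.181, adjusted p = 0.167) in TTP-/- cells, then fell in both, by 9 h to −1.78 and −2.13.

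*Tpx2* and *Cenpe* were higher at 6 h than at 0 h in WT cells. For *Tpx2* the change was 0.75 (SE 0.161, adjusted p = 0.000403) in WT and −0.51 (SE 0.161, adjusted p = 0.00793) in TTP-/- cells, in the FPKM-type fit. For *Cenpe* it was 1.67 (SE 0.245, adjusted p = 2.86e-06) in WT and −0.33 (SE 0.203, adjusted p = 0.146) in TTP-/- cells, in the read fit. *Bub3* fell in both genotypes, by 0.33 in WT and by 0.76 in TTP-/- cells at 9 h, which in WT was less than the fall of the median gene.

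Whether the genotype difference itself changed with LPS was tested as an interaction in 1 fit of all 24 libraries. In the FPKM fit it was smaller than at 0 h in 5 of 20 members at 3 h, 6 at 6 h and 12 at 9 h, where 1.92, 2.84 and 3.78% of genes were, and larger in none. The read fit called it smaller in 7, 7 and 9 of 45 members, against 1.57, 2.13 and 3.10% of genes. Of the 20 members, 10 passed the filter through the TTP-/- libraries, so the counts of the FPKM fit are partly set by its filter. These counts also depended on the constant and scaling of that fit. With a pseudocount of 1 they were 17, 19 and 18 of 20 (3.24, 4.60 and 5.07% of genes), and after rescaling to TPM 4, 4 and 6 (1.40, 1.69 and 2.27%). They moved with single libraries too: at 3 h only 3 of 20 were left when any of these was dropped: of the 0 h libraries WT replicate 2, WT replicate 3, TTP-/- replicate 1 or TTP-/- replicate 2, and of the 3 h libraries WT replicate 1, WT replicate 2, TTP-/- replicate 2 or TTP-/- replicate 3. In these fits of 3 h, 95 to 154 of 8344 genes were called smaller. At 6 h, 11 of 20 members were called without TTP-/- replicate 3 of 0 h, against 318 of 8344 genes. At 9 h, 7 of 20 members were left without TTP-/- replicate 1 of 0 h, against 199 of 8344 genes.

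The change was largest in *Mki67* at 3 h, −1.91 (SE 0.254, adjusted p = 0.000139) in the FPKM fit. *Nusap1* passed at all 3 times, at −1.19, −1.69 and −1.59 (SE 0.269, adjusted p = 0.000726). *Cdk1* and *Tpx2* passed at all 3 times as well, by 9 h at −1.38 (SE 0.209, adjusted p = 0.000273) and −1.05 (SE 0.233, adjusted p = 0.00656). The cyclins passed only at 9 h, with −1.08 for *Ccna2*, −1.22 for *Ccnb1* and −1.17 for *Ccnb2* in the FPKM fit. None of the 3 passed in the read fit, where the values were −0.95, −0.64 and −0.68. For transcripts this low after LPS, the constant of 0.1 in the FPKM fit shrinks the later difference, so the 2 fits weigh the same reads differently. *Tpx2*, *Nusap1*, *Ttk* and *Cenpe* passed at all 3 times in the read fit, *Cenpe* at −1.43, −2.005 and −2.14 (SE 0.345, adjusted p = 0.000335). *Ube2c*, the member with the largest difference, was at −0.85 (SE 0.275, adjusted p = 0.0576) in the FPKM fit at 9 h.

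Other cell cycle lists, chosen by function, had smaller medians at 0 h than the role groups of the members. These lists too were chosen with earlier results of these data known, so this is a description. Single genes outside the members, such as *Foxm1* and *Rrm2* below, reached the members' median of the FPKM fit. At 0 h 18 of 20 DNA replication genes were higher in TTP-/- cells in the read fit, with a median of 1.14, 16 of 20 centrosome and spindle pole genes with 1.63, 24 of 29 other centromere and kinetochore genes with 1.36 and 7 of 8 condensin genes with 1.12. Cohesin genes were higher in 6 of 15 with a median of 0.11, and the further subunits and partners of the APC/C in 4 of 17 with 0.16, close to the median gene. Over all genes 23.0% were higher, and the APC/C count was near that share. The DNA replication genes were higher in 17, 10 and 12 of 20 at 3, 6 and 9 h, with medians of 0.89, 0.52 and 0.49, against 23.0, 18.7 and 26.5% of all genes.

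**Figure D4:**
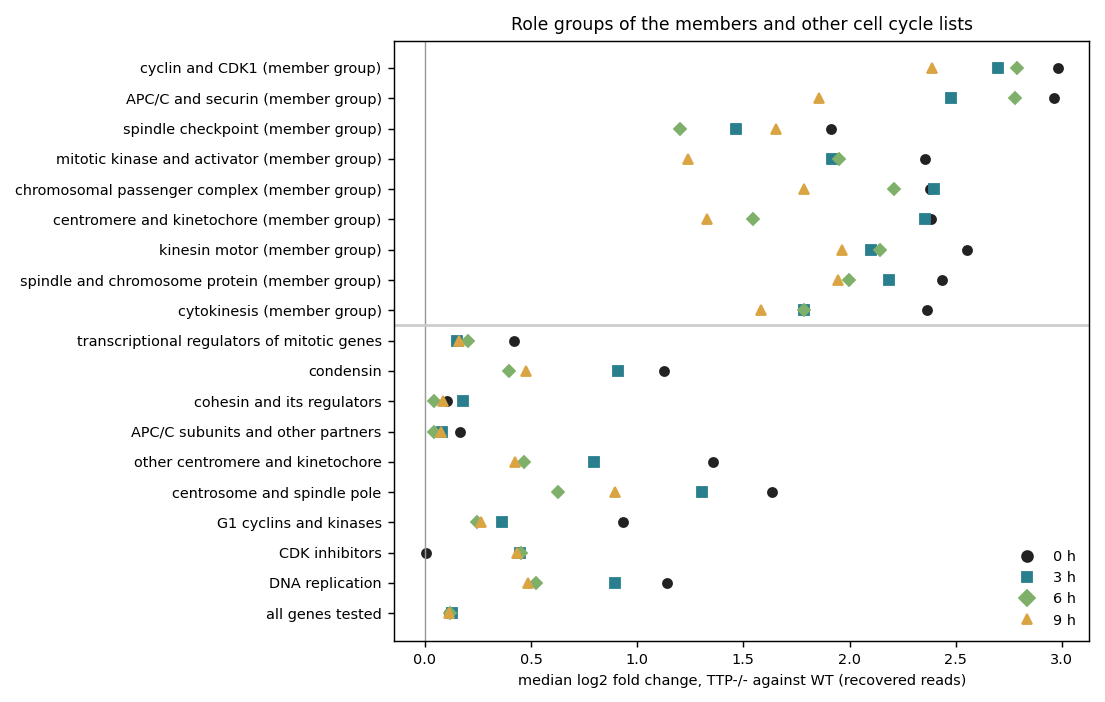
Median log2 fold change (TTP-/- minus WT, read fit) of the 9 role groups of members, of 9 other cell cycle lists and of all genes tested, 1 symbol per time of LPS. At 0 h the role groups lie between 1.91 and 2.98 and the other lists between 0.00 and 1.63.

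*Foxm1*, the transcription factor that drives many G2 and M genes, was at 0.618 ± 0.0964 FPKM on average in WT cells and 3.88 ± 0.506 FPKM in TTP-/- cells (SD, n = 3) before LPS, 2.47 (SE 0.15, adjusted p = 0.000182) in limma's FPKM fit. *Mybl2*, which encodes the B-MYB partner of MuvB, was higher before LPS (1.51 (SE 0.253, adjusted p = 0.00182), read fit) and at −0.05, −0.01 and 0.09 later. *Rrm2* and *Rrm1*, the subunits of ribonucleotide reductase, and *Mcm5*, of the replicative helicase, were higher by 2.15, 1.404 and 1.01 at 0 h in the FPKM fit. Further genes higher there were *Ncapd2* of condensin (1.51), the APC/C inhibitor *Fbxo5* (1.54), the E2 enzyme *Ube2s* (0.94), the passenger subunit *Incenp* (1.52), the centromere genes *Oip5* (1.49) and *Cenpw* (1.201), and the spindle pole genes *Tacc3* (1.58) and *Tubg1* (1.16).

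The G1 regulators did not move in a single direction. *Ccnd2*, encoding cyclin D2, was lower in TTP-/- cells before LPS, at 20.2 ± 0.883 FPKM on average in WT cells and 8.55 ± 0.555 FPKM in TTP-/- cells (SD, n = 3), −1.23 (SE 0.105, adjusted p = 0.000437) in limma's FPKM fit. It was still lower at 9 h (−0.48 (SE 0.0897, adjusted p = 0.00559)). *Ccnd1*, encoding cyclin D1, was 0.78 at 0 h and lower at 3 and 6 h (−0.903 and −1.08). *Ccne2*, encoding cyclin E2, and the CDK1 inhibitory kinase gene *Pkmyt1* were higher at 0 h by 1.41 and 1.19. Among the CDK inhibitors, *Cdkn1a* (p21) was at −0.33 (SE 0.164, adjusted p = 0.176) before LPS, *Cdkn2d* (p19) was higher by 1.501 and *Cdkn2c* (p18) lower at −0.53 (SE 0.148, adjusted p = 0.0362), which the read fit did not call (−0.44 (SE 0.166, adjusted p = 0.0718)).

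Summed markers of granulocytes, macrophages and B and plasma cells were higher in TTP-/- cells as the members were, while those of dendritic cells were lower and those of progenitors overlapped. Before LPS the 12 neutrophil precursor markers summed to 340 to 383 RPM in WT and 1659 to 2330 in TTP-/- libraries, and all 12 were higher in the read fit. Of these, *Mpo*, *Elane* and *Fcnb* averaged under 10 reads in WT cells and entered through the TTP-/- libraries. The count of 12 is thus partly set by the filter of the read fit. Over all genes of that fit 23.0% were higher and 1722 of 14487 lower, against which the marker counts are to be read. The 8 mature neutrophil markers summed to 423 to 558 and 2589 to 3875 (8 of 8 higher), and the eosinophil, basophil and mast cell markers to 98.6 to 109 and 526 to 654 (10 of 12 tested higher). Among the latter, *Ms4a2* and *Fcer1a* also averaged under 10 reads in WT cells and entered through the TTP-/- libraries. Macrophage markers summed to 327 to 429 in WT and 816 to 1038 in TTP-/- libraries (7 of 9 higher, 1 lower). Progenitor markers summed to 291 to 365 and 254 to 332, with 4 of 7 tested higher and 1 lower. Dendritic cell markers summed to 15630 to 20176 in WT and 9084 to 13640 in TTP-/- libraries, with 7 of 12 lower, so the labelled cell type had its markers in both genotypes. B and plasma cell markers summed to 8.45 to 10.6 and 55.4 to 92.6, nearly all from *Ighm* and *Jchain*, with *Pax5* at 0 in both genotypes. Erythroid and T and NK cell markers were at 2.07 RPM or less in every group. The part of these other cells in the result on mitotic genes was not tested.

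**Figure D5:**
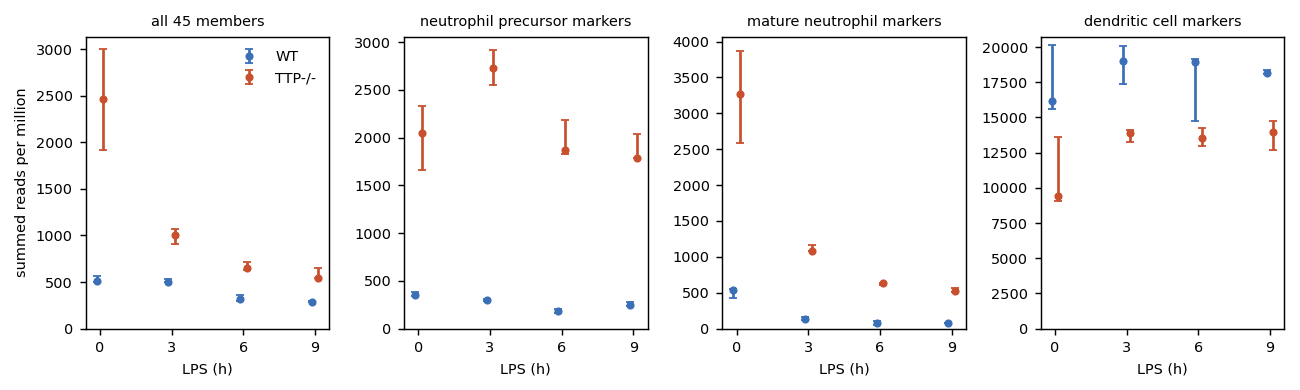
Summed RPM (linear axes from 0) of the 45 members and of the neutrophil precursor, mature neutrophil and dendritic cell markers against hours of LPS, with the median of 3 libraries as a point and the lowest and highest library as bars, for WT and TTP-/- cells. The neutrophil precursor sum stays at 1659 or more in TTP-/- libraries, while the sum of the members goes from 1914 to 2999 at 0 h to 541 to 650 at 9 h. During LPS much of the members' sum comes from Mki67, Pttg1 and Bub3.

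Over the time course the marker sums went different ways. Neutrophil precursor markers were at 2553 to 2919 RPM in TTP-/- libraries at 3 h and 1790 to 2036 at 9 h, and mature neutrophil markers were at 502 to 570 at 9 h. In WT cells the precursor markers were at 292 to 308 at 3 h and 237 to 278 at 9 h, and the mature markers at 71.0 to 79.4 at 9 h. Levels were set side by side between genes as mean RPM per kilobase of annotated exon. Before LPS the highest members in WT were *Bub3* (12.98), *Pttg1* (12.3) and *Mki67* (8.47), and the lowest was *Cenpf* (0.130). In TTP-/- cells they were *Ube2c* (48.6), *Mki67* (45.5) and *Ccnb2* (40.02), again with *Cenpf* lowest (1.40). Neighbours in this order overlapped between libraries in all 44 cases in TTP-/- and in 40 of 44 in WT cells. The 4 WT pairs apart were *Pttg1* and *Mki67*, *Mki67* and *Ccna2*, *Cdca3* and *Cenpa*, and *Kif2c* and *Cenpf*.

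The members rose and fell together across the 24 libraries. Over the 20 past the FPKM filter, Pearson's r of a member's log2 level with the mean of the others was 0.920 or more in 16, and lower in *Bub3* (0.797), *Mki67* (0.746), *Tpx2* (0.733) and *Pttg1* (−0.459). The libraries share genotype and time, so these values describe the design as much as the genes. Outside the list, the genes most like the members' mean were *Foxm1* (0.984), *Stmn1* (0.979), *Nov* (0.977), *Cd300ld* (0.974), *Tacc3* (0.973), *Pclaf* (0.973), *Clec12a* (0.972), *Hmgn2* (0.971), A730008H23Rik (0.971) and Gm15452 (0.970). *Foxm1*, *Stmn1*, *Tacc3* and *Pclaf* are known from the cell cycle, while *Cd300ld* and *Clec12a* encode receptors of the myeloid cell surface.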

How the data were processed

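Libraries were made by the authors from poly(A) RNA of WT and TTP-/- BMDCs, and per the submitters' processing notes reads were handled with cutadapt, FastQC and STAR 2.5; the counting strand is not given in the sources used here. The deposited FPKM divide reads by a length that matched the annotated gene span in 75.3% of genes averaging 100 reads or more. They were made by the authors and are scaled within the 6 libraries of each time table. The mean signal deposited beside them is the authors' mean of normalised counts. The deposited comparisons of the authors (log2 fold changes with errors, test scores and p-values from DESeq2) were not used.

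Reads were recovered from FPKM, since 100% of values in each library were within 0.05 of a whole number of reads. Assigned reads were 19966708 to 25553546 per library (median 22559946), which sets the counting precision of members with few reads. Names came from the tables (16878 IDs) or GENCODE mouse release 21 (6261 IDs), as did gene positions on GRCm38. With limma 3.58.1 (R 4.3.3; tables in Python 3.11.15 with pandas 2.3.3), log2(FPKM + 0.1) was fitted with a mean-variance trend at each time on 6 libraries, in 8350 genes averaging 0.5 FPKM or more over the 24 libraries, with Benjamini-Hochberg adjustment and a threshold of 0.05 (the FPKM fit). Time contrasts used 1 fit of 24 libraries on recovered reads per kilobase, scaled to library totals. The read fit was voom in limma on recovered reads with library totals as scale, in genes averaging 10 reads or more, added after the data were seen. Both were tested on simulated data. Labels and methods speak of biological triplicates but not of shared animals, so a p-value speaks only for the spread among these 3 cultures a group.

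The members and all gene lists were chosen with earlier results of these data known. Named in full were the 2 members of each role group with the highest mean FPKM (3 in groups of 6 or more), members not called at 0 h, past an interaction test or at an extreme of log2 fold change, up to 3 genes of each other list past the threshold at 0 h, and 10 genes most correlated with the members.

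Pairing by replicate number was checked through the correlation of deviations from group means. At 6 h all 3 WT and TTP-/- pairs were above 0.1 (0.215 to 0.505), so the replicate block is given beside 6 h results that it changes. At the other times this did not hold, and over all times 5 of 12 pairs were above 0.1 (−0.581 to 0.505). At 0 h, WT replicate 2 and TTP-/- replicate 3, of unequal number, reached 0.707. No label pairs WT with TTP-/- cultures. The block was chosen from these same data, so calls gained with it depend on that choice.

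Alternatives were other pseudocounts, filters and scalings (TPM, median of ratios, exon lengths), 1 fit of all libraries, the block, and leaving out each replicate.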

Additional observations from a re-analysis of the deposited data

Results flagged for a closer look

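In 1 fit of the 24 libraries, the genotype difference (TTP-/- minus WT, log2, FPKM fit) of the following members was smaller after LPS than before it, each by an interaction term of limma at an adjusted p of 0.05. Of the 20 members tested, 10 passed the filter through the TTP-/- libraries. The values are the difference after LPS minus that at 0 h. At 3 h they were −0.74 for *Cdk1*, −1.18 for *Tpx2*, −0.73 for *Cenpa*, −1.19 for *Nusap1* and −1.91 for *Mki67*. At 6 h they were −1.28 for *Cdk1*, −1.29 for *Tpx2*, −0.79 for *Birc5*, −1.34 for *Spc25*, −1.69 for *Nusap1* and −0.87 for *Top2a*. At 9 h the cyclins *Ccna2*, *Ccnb1* and *Ccnb2* had −1.08, −1.22 and −1.17, *Cdk1* had −1.38 and *Cdc20* −1.37. Also at 9 h, *Bub3* had −0.44, *Tpx2* −1.05, *Birc5* −0.96, *Spc25* −1.33, *Kif20a* −1.01, *Nusap1* −1.59 and *Top2a* −0.95. In the read fit *Tpx2*, *Nusap1*, *Cenpa* and *Mki67* at 3 h, *Cdk1*, *Tpx2*, *Spc25* and *Nusap1* at 6 h, and *Cdk1*, *Bub3*, *Tpx2*, *Spc25* and *Nusap1* at 9 h passed as well.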

How the results depend on the processing

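Of 297 alternative values of the counts of members, 249 stayed within 1.5 times the reported count. For single members 3450 of 3692 values kept direction and side of the threshold, 82 gained and 143 lost the call, and 17 changed sign. Counts in the FPKM fit moved with the number of members tested: without a filter 44, 42, 38 and 36 of 45 were higher in TTP-/- cells at 0, 3, 6 and 9 h, at a mean of at least 5 FPKM 1 of 3 at each time, and in voom on recovered reads 45, 45, 42 and 42. Over all genes without a filter, 2245 of 21590, 1770 of 21145, 1745 of 20816 and 2623 of 20888 were higher. At 5 FPKM or more, 339, 222, 248 and 395 of 2156 genes were higher. With FPKM on exon lengths, chosen after seeing the data, 41, 40, 35 and 37 of 43 members were higher. The share over all genes was 2066 of 12254, 1755 of 12258, 1613 of 12257 and 2414 of 12257 there. Lower than at 0 h were, without a filter, 40, 41 and 42 members in WT and 43, 43 and 44 in TTP-/- cells, and in voom 41, 41 and 42, and 43, 43 and 44. Without a filter 8126, 9060 and 8928 of 19104 genes were lower in WT, and 7791, 8644 and 8615 in TTP-/- cells.

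With the replicate number as a block, the members higher at 0, 3, 6 and 9 h were 18, 16, 18 and 16 of 20, and 43, 43, 44 and 41 of 45 in the read fit. Of all genes, 712 of 8346, 756 of 8350, 1253 of 8348 and 1385 of 8349 were higher with the block. In the read fit 2471 of 14487, 2691 of 13870, 3607 of 13650 and 3477 of 13620 genes were. The block changed no other count by over 1.5 times except the interactions at 3 h (3 members, against 129 of 8344 genes). Interaction counts with a pseudocount of 1 were 17 at 3 h and 19 at 6 h, and with TPM 6 at 9 h. *Bub3* at 9 h (−0.19) was the member called lower in TTP-/- cells without a filter and in 1 fit of all 24 libraries. Leaving out each replicate in turn gave 18 to 18, 15 to 18, 12 to 18 and 15 to 17 of 20 higher at the 4 times (read fit 43 to 45, 42 to 45, 35 to 44 and 40 to 43). Over all times, 528 to 1492 of 8346 to 8350 genes were higher in these fits (read fit 1906 to 4164 of 13620 to 14487). Lower with LPS were 16 to 17, 16 to 18 and 17 to 18 in WT (read fit 38 to 41, 40 to 42 and 41 to 42) and 18 to 19, 18 to 19 and 19 to 19 in TTP-/- cells (43 to 44, 42 to 44 and 44 to 44). Across both genotypes 3629 to 4635 of 8344 genes were lower (read fit 6848 to 8489 of 14115). The genotype difference was smaller than at 0 h in 95 to 357 of 8344 genes (read fit 153 to 534 of 14115). Interactions of members ranged from 3 to 6, 4 to 11 and 7 to 14 (read fit 3 to 9, 6 to 13 and 8 to 15). In the read fit they were 4 at 3 h without WT replicate 2 of 0 h or TTP-/- replicate 2 or 3 of 3 h, 3 without TTP-/- replicate 1 of 0 h, and 13 at 6 h and 15 at 9 h without TTP-/- replicate 3 of 0 h.

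Some values of single members changed sign. *Bub3* at 6 h was 0.10 with TPM, 0.12 in voom, and when single libraries were left out −0.0707 to 0.0038, with 0.003 lacking WT replicate 3; it was 0.0629 at 9 h against 0 h in WT with median of ratios. *Mki67* at 3 h against 0 h in TTP-/- cells was 0.0258 with median of ratios. The interaction of *Pttg1* at 3 h was −0.154 to 0.0155 and at 9 h −0.0515 to 0.1046 when single libraries were left out. That of *Aurkb* was 0.0209 at 3 h and 0.0048 at 6 h in voom, and that of *Ccnb1* at 6 h 0.12 with TPM and 0.48 in voom. The cause of these changes was not tested. Depth limits members with under 10 reads on average in WT cells, 2 at 3 h, 6 at 6 h and 7 at 9 h.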

Other observations

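The level of the members in TTP-/- cells after 9 h of LPS was set beside that in untreated WT cells, in recovered reads scaled to library totals and with no test. In 21 of 45 members all 3 TTP-/- libraries at 9 h lay below all 3 WT libraries at 0 h, among them *Ccna2*, *Ccnb1*, *Bub1*, *Top2a*, *Kif11* and *Anln*. In 7 members, *Ccnb2*, *Cdca3*, *Ube2c*, *Pttg1*, *Plk1*, *Tpx2* and *Cenpe*, they lay above, and in the other 17 the libraries overlapped. Over the 14115 genes of the read fit, 54.2% lay below and 19.3% above in the same way, so the counts of members are to be read against these shares.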
